A study of Caenorhabditis elegans with 23 samples.

Results

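The genes described here are *sdg-1* (*F07B7.2*), the gene directly downstream of it (*F07B7.1*) and its paralogs *ZK262.8* and *C03A7.2*, which are 4 of the 21982 genes in the quantification. They were chosen by sequence name, starting from *sdg-1*, which the study selected on its mRNA levels in the deletion mutant *sid-1(jam113)*, the nonsense mutant *sid-1(jam80)* and the revertant *sid-1(jam86)*. *F07B7.1* is likewise in the study's list of genes changed in *sid-1(jam113)*. The values of *F07B7.2* in these 3 strains, and of *F07B7.1* in *sid-1(jam113)*, are therefore given as a description with no test.

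SID-1 is a transmembrane protein that *C. elegans* needs to bring double-stranded RNA (dsRNA) into the cytosol, and animals that lack it do not respond to ingested dsRNA. Within the germline, mRNAs can be held down over generations by antisense small RNAs that are made in perinuclear germ granules and bound by Argonaute proteins. Retrotransposons, mobile elements that copy themselves through RNA, are common targets of this silencing. The *sdg-1* gene lies inside a retrotransposon of the *Cer9* family, within a duplicated region, and its protein has been found to associate with components of germ granules. *ZK262.8* and *C03A7.2* are the genes recognizable as its paralogs.

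PolyA+ RNA of unsorted mixed-stage whole animals was measured in 23 libraries of 9 groups, which fall into 3 sets, each with its own N2 wild type. The previously generated set (2 libraries per group) held wild type, the nonsense mutant *sid-1(qt9)* (strain HC196), the deletion mutant *sid-1(tm2700)* (FX02700) and its rescued strain *sid-1(tm2700); tmIs1005[sid-1(+)]* (FX15992). The nonsense and revertant set (3 per group) held wild type, *sid-1(jam80)* (AMJ1159), which carries the same kind of change as *qt9* but was made by Cas9 editing of N2, and *sid-1(jam86)* (AMJ1217), in which *jam80* was edited back to the wild-type sequence. The deletion set (3 per group) held wild type and *sid-1(jam113)* (AMJ1324), made by removing the whole *sid-1* coding sequence from N2. Each mutant is represented by 1 strain, so an effect of the allele and other differences of that strain cannot be told apart, and the transgene *tmIs1005* also carries a *vps-45* minigene. No animal received a treatment. The labels give liquid culture for the previously generated set, whereas the study's methods describe plates. That set was also extracted, prepared and sequenced differently (TRIzol, a TruSeq kit not named as stranded, single reads) from both plate sets (RNAzol, a stranded TruSeq kit, paired-end reads), so set, culture and library method cannot be told apart.

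Total estimated counts were between 22147631 and 26396892 in the previously generated set and between 35320382 and 79287591 in the plate sets. Of the 23 libraries, 20 were most similar to a library of their own group. Replicate 3 of *sid-1(jam113)* was among the exceptions and lay closer to the wild type of its set (root mean square difference of 0.399 in log2 values) than to its own replicates (0.491), so values without it are given for *sid-1*, *sdg-1* and *F07B7.1*. Markers of oogenic germline, sperm, early embryo, intestine, muscle, neurons and hypodermis all had reads in every group, with 0 markers absent from any group. In bulk RNA, fewer germ cells and less mRNA per germ cell cannot be told apart.

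The members were all annotated on chromosome V, on the plus strand of WBcel235. *F07B7.2* (WBGene00017186) spanned 8870259 to 8872003, with 4 exons and a protein of 316 residues. *F07B7.1* (WBGene00017185) spanned 8872277 to 8873535 and started 273 bp after the end of *F07B7.2*. It has 4 exons and 307 residues. *C03A7.2* (WBGene00015366) spanned 5181912 to 5183717 and encodes 327 residues. Its start lay 54995 bp beyond the end of *sid-1* itself. *ZK262.8* (WBGene00013953), with 277 residues, spanned 18438381 to 18440195, on the far arm of the chromosome. The exon lengths of the paralogs follow those of *sdg-1* more closely than the neighbour does. Exon 3 had 168 bp in *F07B7.2*, *ZK262.8* and *C03A7.2*, and exon 4 had 575 bp in both *F07B7.2* and *C03A7.2* and 425 bp in *ZK262.8*. Exon 4 of *F07B7.1* was 78 bp long.

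Reads of these genes could also come from elsewhere. The copy of *sdg-1*, *W09B7.2* (8828165 to 8829909), and the copy of the neighbour, *W09B7.1* (8830183 to 8831441), lie 42094 bp upstream on the same chromosome with the same exon and intron lengths. The files hold 0 entries for either copy. Reads of the copies are here assumed to be counted under *F07B7.2* and *F07B7.1*, and their shares cannot be told apart. *ZK262.8* overlaps *ZK262.9* on the same strand, with 425 exonic bases shared in the annotation. *C03A7.2* lies inside the span of *C03A7.13* on the opposite strand, with 0 exonic bases shared. All 4 members had whole estimated counts (to within 1e-06) in 23 of 23 libraries. So did 72.8% of the 16524 genes with reads in all libraries, so this does not set the members apart.

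*sid-1* mRNA, the targeted gene, was checked first. Levels are in CPM, the reads of a gene relative to all reads counted in its library, scaled within each set by the trimmed mean of M-values. In *sid-1(jam113)* it was 1.19, 1.22 and 1.42 CPM against 51.4, 54.2 and 49.1 in N2, lower by a log2 fold change of -5.32 (SE, the standard error, 0.11, adjusted p = 2.19e-07, edgeR; -5.41 without replicate 3). In *sid-1(jam80)* it was 16.4, 18.6 and 16.6 CPM against 35.4, 35.3 and 32.7 in N2, lower by a log2 fold change of -1.0 (SE 0.07, adjusted p = 8.48e-06, edgeR). In *sid-1(jam86)* it was 34.1, 27.8 and 30.9 CPM, which overlapped wild type (log2 fold change -0.15, SE 0.07, adjusted p = 0.256, edgeR). In the previously generated set, wild type had 31.2 and 32.5 CPM and *sid-1(qt9)* had 18.8 and 14.7 (log2 fold change -0.94, SE 0.15, adjusted p = 0.000545, edgeR). *sid-1(tm2700)* had 21.4 and 23.6 CPM, a smaller decrease (log2 fold change -0.50, SE 0.10, adjusted p = 0.0433, edgeR), and the rescued strain had 52.0 and 44.0 CPM, more than wild type (0.59, SE 0.12, adjusted p = 0.0022, edgeR). The last 2 calls depended on single libraries. Leaving out 1 library of this set leaves a group with 1, which is then assumed to vary like the other group, here and below. Without replicate 1 of *sid-1(tm2700)* its adjusted p was 0.183, and without replicate 1 of wild type that of the rescued strain was 0.0501 (edgeR). The call in *sid-1(tm2700)* was also lost in 4 of 8 other settings, with adjusted p of 0.0546 (upper-quartile scaling) to 0.121 (replicate block). *sid-1* mRNA was lower than in every wild-type library of the same set in each nonsense and deletion strain. In the rescued strain, reads of the *tm2700* locus and of the transgene are summed and cannot be told apart. Its value is therefore not a level of intact *sid-1* mRNA.

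**Figure D1:**
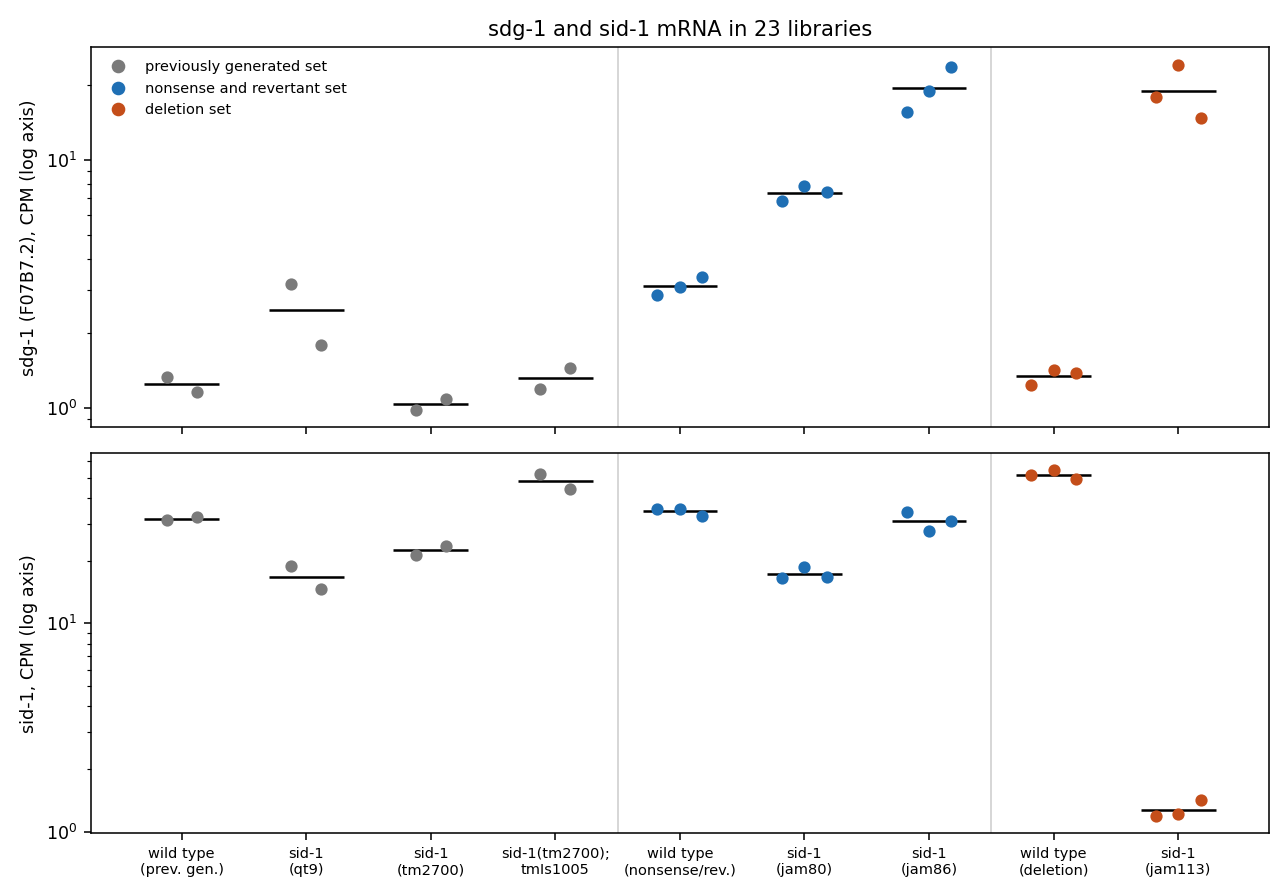
*sdg-1* (upper panel) and *sid-1* mRNA (lower panel) in CPM on log axes for the 23 libraries, grouped by strain and coloured by set; points are libraries and bars are group means. *sdg-1* was near 1 CPM in 3 groups of the previously generated set and in the deletion set's wild type, and between 14.8 and 24.2 CPM in *sid-1(jam86)* and *sid-1(jam113)*, whose mean *sid-1* levels were 30.9 and 1.28 CPM.

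*sdg-1* mRNA was low in wild type and highest in 2 strains with very different amounts of *sid-1* mRNA. In *sid-1(jam113)*, 937, 1432 and 1099 reads of *F07B7.2* gave 18.0, 24.2 and 14.8 CPM. The wild type of that set had 88, 82 and 109 reads, or 1.24, 1.42 and 1.38 CPM. The groups did not overlap, and the log2 fold change was 3.82 (SE 0.20), a 14.1-fold difference. Without replicate 3 of *sid-1(jam113)* it was 3.97. By RT-qPCR of a later generation, the study detected no rise of *sdg-1* in *sid-1(jam113)*, while it did in *sid-1(jam80)*. In the nonsense and revertant set, wild type had 2.84, 3.09 and 3.38 CPM and *sid-1(jam80)* had 6.83, 7.89 and 7.45 CPM, all 3 above wild type (log2 fold change 1.25, SE 0.11). *sid-1(jam86)*, with an intact *sid-1* sequence, had 15.7, 19 and 23.8 CPM, above every library of the nonsense parent. Its log2 fold change was 2.64 (SE 0.14) against wild type and 1.40 (SE 0.13) against *sid-1(jam80)*. The first of these is a 6.22-fold and the second a 2.64-fold difference. Because the study chose *F07B7.2* on these strains, no test is given. The shares of all genes tested that passed the threshold (adjusted p under 0.05, edgeR, either direction) were 0.197% for *sid-1(jam113)*, 0.0665% for *sid-1(jam80)*, 3.28% for *sid-1(jam86)* and 1.25% for the revertant against its parent.

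The previously generated mutants, on which *sdg-1* was not chosen, did not pass the test for *sdg-1*. Wild type had 34 and 26 reads (1.33 and 1.16 CPM). In *sid-1(qt9)*, 70 and 47 reads gave 3.17 and 1.80 CPM, both above both wild-type libraries. The log2 fold change was 0.97 (SE 0.31, adjusted p = 0.118, edgeR), and 1.84% of all genes tested passed in this comparison. Which library represented the mutant mattered. With replicate 2 left out, so that 1 mutant library was set against wild type, the log2 fold change was 1.34 (adjusted p = 0.00292, edgeR), and with replicate 1 left out it was 0.52 (adjusted p = 0.679). With no filter on low counts the adjusted p was 0.0317 at the same fold change.

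In *sid-1(tm2700)*, *sdg-1* was not above wild type. It had 26 reads in each library, or 0.98 and 1.09 CPM, which lay just below both wild-type libraries, while in TPM (0.71 and 0.79) they overlapped wild type (0.89 and 0.76). The log2 fold change was -0.27 (SE 0.28, adjusted p = 0.845, edgeR), in a comparison in which 1.11% of genes passed. The rescued strain, with 26 and 38 reads, had 1.19 and 1.46 CPM and overlapped wild type (log2 fold change 0.09, SE 0.31, adjusted p = 0.949, edgeR; 3.54% of genes passed). *sid-1(tm2700)* was below its rescued strain by a log2 fold change of -0.37 (SE 0.30, adjusted p = 0.631, edgeR; 2.07% of genes passed), with no overlap between the libraries in CPM and overlap in TPM. These counts of 26 to 38 reads limit what could be detected. The change in *sid-1(jam80)* exceeded that in *sid-1(tm2700)* by 1.53 on the log2 scale (SE 0.41), given without a test.

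Compared directly within the previously generated set, the *sdg-1* level in *sid-1(tm2700)* was below that in *sid-1(qt9)* by a log2 difference of -1.27 (SE 0.33, adjusted p = 0.0643, edgeR), and the rescued strain was below it by -0.92 (SE 0.32, adjusted p = 0.0517, edgeR). Neither passed the threshold. The change in *sid-1(jam80)* exceeded that in *sid-1(qt9)*, the allele it mimics, by only 0.26 (SE 0.37) on the log2 scale, a difference below its SE, given without a test.

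**Figure D2:**
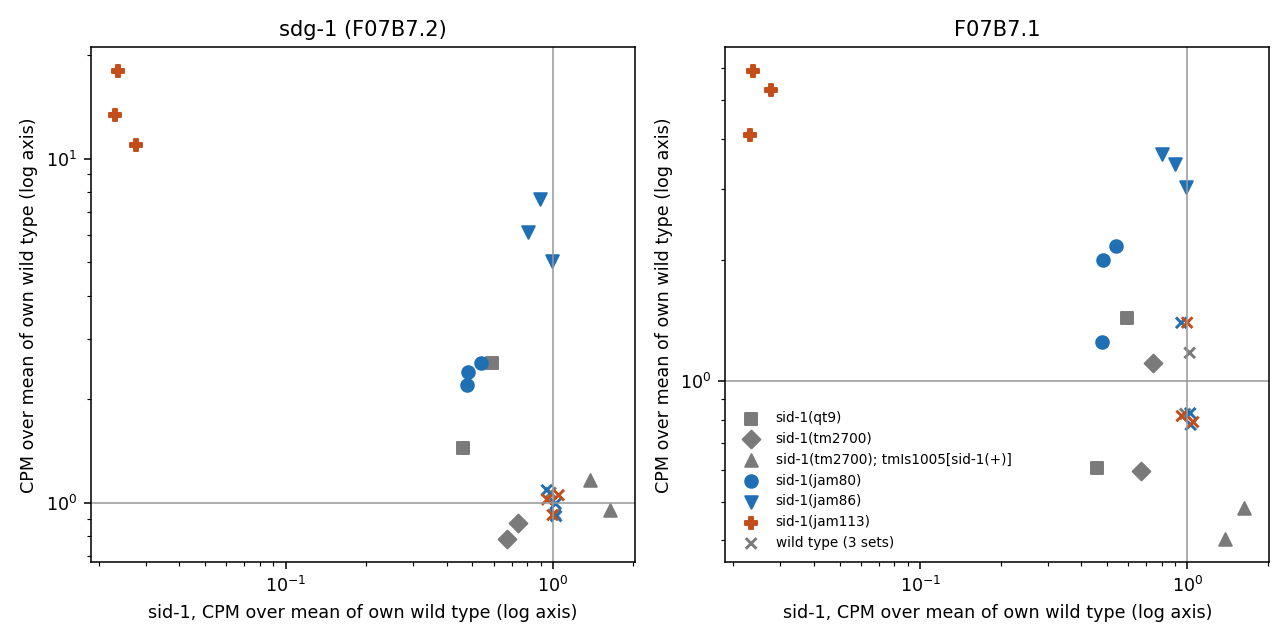
Each library's *sdg-1* (left) and *F07B7.1* (right) level against its *sid-1* level, all as CPM divided by the mean of the wild type of the same set, on log axes. For *sdg-1*, *sid-1(jam86)* lay between 5.05 and 7.65 times its wild type at 0.81 to 0.99 times the wild-type *sid-1* level, and the rescued strain lay between 0.95 and 1.17 times at 1.38 to 1.63 times. The *sid-1* reads of the rescued strain can come from both the *tm2700* locus and the transgene.

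Set against the *sid-1* level of the same libraries, *sdg-1* followed no single order. The study treats *qt9* and *tm2700* as loss-of-function alleles and found *jam80* and *jam113* equally defective in silencing by ingested dsRNA. The *sid-1* mRNA that these strains kept is therefore no measure of SID-1 function. *sid-1(jam80)* kept 0.48 to 0.54 times and *sid-1(qt9)* 0.46 to 0.59 times the wild-type *sid-1* mRNA, at *sdg-1* levels of 2.20 to 2.54 and 1.44 to 2.55 times wild type. *sid-1(tm2700)* kept 0.67 to 0.74 times the *sid-1* mRNA at 0.79 to 0.88 times the *sdg-1* mRNA. *sid-1(jam113)* kept 0.023 to 0.028 times the *sid-1* mRNA at 11 to 18.0 times the *sdg-1* mRNA. A fit of all 23 libraries with the set as a covariate gave *F07B7.2* a log2 fold change of 1.03 (SE 0.57) between strains that lack *sid-1* function and strains that have it, the revertant included among the latter, and *F07B7.1* one of 0.77 (SE 0.36), both as descriptions. Leaving out the deletion set turned the *F07B7.2* value to -0.31, and leaving out the nonsense and revertant set raised it to 2.31. In that fit, 0% of 18737 genes passed the threshold in edgeR, with 2641 at an unadjusted p under 0.05, while 1 passed in limma voom and 122 in DESeq2. *ZK262.8* (0.68, SE 0.58, adjusted p = 0.628) and *C03A7.2* (0.13, SE 0.26, adjusted p = 0.86) were among those that did not pass in edgeR.

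The wild types themselves differed between sets. On the scale of TPM, Salmon's relative abundance of transcripts, which allows for transcript length, mean *sdg-1* was 0.83 ± 0.09 (SD, n = 2) in the previously generated set, 1.44 ± 0.17 (n = 3) in the deletion set and 3.15 ± 0.25 (n = 3) in the nonsense and revertant set. Both plate wild types are N2 handled by the same protocol, yet they differed 2.18-fold, more than the spread of their replicates. The deletion mutant *sid-1(jam113)* and the revertant *sid-1(jam86)* had 19.9 ± 5.7 and 19.96 ± 4.5 TPM (SD, n = 3 each). The part of the wild-type levels in the larger fold change of *sdg-1* in *sid-1(jam113)* was not tested. Ordered by mean CPM, the 9 groups ran from *sid-1(tm2700)* through the wild type of its set, the rescued strain, the deletion set's wild type, *sid-1(qt9)*, the wild type of the nonsense and revertant set, *sid-1(jam80)* and *sid-1(jam113)* to *sid-1(jam86)*, and the order of mean TPM was the same. In CPM, which was scaled within each set, neighbours in that order overlapped in 4 of the 8 steps. These included wild type and the rescued strain of the previously generated set, and the rescued strain and the deletion set's wild type. The others were *sid-1(qt9)* and the wild type of the nonsense and revertant set, and *sid-1(jam113)* and *sid-1(jam86)*. In TPM the rescued strain did not overlap the deletion set's wild type, nor *sid-1(qt9)* the wild type of the nonsense and revertant set. Instead *sid-1(tm2700)* overlapped the wild type of its set, and the deletion set's wild type overlapped *sid-1(qt9)*.

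*F07B7.1*, the downstream neighbour, rose in *sid-1(jam86)*, a strain on which the study did not choose it. It had 84, 67 and 57 reads there, or 1.17, 1.42 and 1.34 CPM. Wild type had 11, 18 and 26 reads, or 0.30, 0.32 and 0.54 CPM. The groups did not overlap, and the log2 fold change was 1.73 (SE 0.25, adjusted p = 0.00202, edgeR), a 3.32-fold difference. It kept an adjusted p of at most 0.0173 when any 1 replicate was left out. It was 1 of 3 members tested there, beside 3.28% of all genes. *sid-1(jam80)* was intermediate, with 0.48, 0.84 and 0.77 CPM, and its lowest library overlapped wild type (log2 fold change 0.85, SE 0.31, adjusted p = 0.758, edgeR; 0 of the 2 members tested passed). The revertant lay above its nonsense parent in every library, by a log2 fold change of 0.89 (SE 0.22, adjusted p = 0.0674, edgeR). That value passed with no filter on low counts (adjusted p = 0.0324) and without replicate 1 of the revertant (adjusted p = 0.043).

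In *sid-1(jam113)*, *F07B7.1* had 1.08, 1.56 and 1.40 CPM (56, 92 and 104 reads) against 0.37, 0.21 and 0.22 CPM (26, 12 and 17 reads) in wild type. The log2 fold change was 2.34 (SE 0.28), and 2.31 without replicate 3, given as a description. In the previously generated set the gene had only 2 to 6 reads per library, and no comparison passed. Its log2 fold change was -0.01 (SE 0.72, adjusted p = 0.998, edgeR) in *sid-1(qt9)* and -0.23 (SE 0.69, adjusted p = 0.965) in *sid-1(tm2700)*. In the rescued strain both libraries, with 2 reads each, were below both wild-type libraries (-1.13, SE 0.89, adjusted p = 0.618, edgeR), and *sid-1(tm2700)* was above the rescued strain by 0.89 (SE 0.92, adjusted p = 0.744). In both of these comparisons the gene passed the filter on low counts only through the other group, as the rescued libraries were below 0.1 CPM, so that a difference was built into its being tested.

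**Figure D3:**
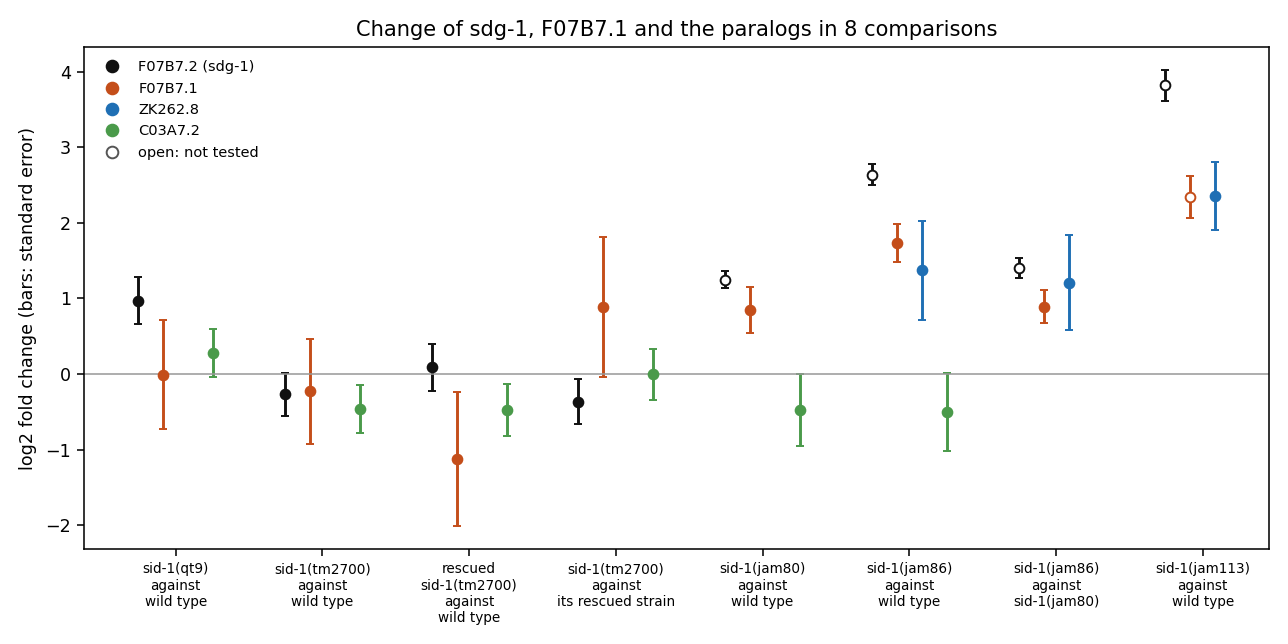
Log2 fold change of the members in the 8 comparisons, with bars of 1 standard error; open symbols mark values that were not tested because the study chose the gene on that comparison. A missing symbol is a gene with too few reads to be tested. *F07B7.2*, *F07B7.1* and *ZK262.8* lay above 0 in each plate comparison in which they appear, and *C03A7.2* lay below 0 in both plate comparisons in which it could be tested. In these comparisons *ZK262.8* and *C03A7.2* would not have passed the filter on low counts without the higher group, so that a difference was built in.

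Per length, *F07B7.1* was less abundant than *sdg-1* in every library. Its TPM was 20.7% ± 8.7 (SD, n = 3) of that of *sdg-1* in the deletion set's wild type and 7.57% ± 1.97 (n = 3) in *sid-1(jam113)*, and the libraries did not overlap. In the nonsense and revertant set it was 12.7% ± 3.3 in wild type (SD, n = 3). It was 9.68% ± 2.05 in *sid-1(jam80)* and 7.11% ± 1.09 in *sid-1(jam86)* (SD, n = 3 each). The *sid-1(jam80)* libraries overlapped those of wild type and of *sid-1(jam86)*, while the *sid-1(jam86)* libraries lay below wild type. In the plate sets the mean share was thus lower in the groups with more *sdg-1*. As *sdg-1* is the denominator, a higher *sdg-1* level by itself lowers the share at a given *F07B7.1* level. In the previously generated set the share was 16.1% ± 5.5 in wild type, 7.78% ± 1.61 in *sid-1(qt9)*, 16% ± 5.7 in *sid-1(tm2700)* and 6.74% ± 1.79 in the rescued strain (SD, n = 2 each), resting on single-digit reads of *F07B7.1*. The lowest mean share was thus in the rescued strain, although its *sdg-1* level overlapped wild type. These shares combine genes and libraries on which the study made its choice and were not tested.

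**Figure D4:**
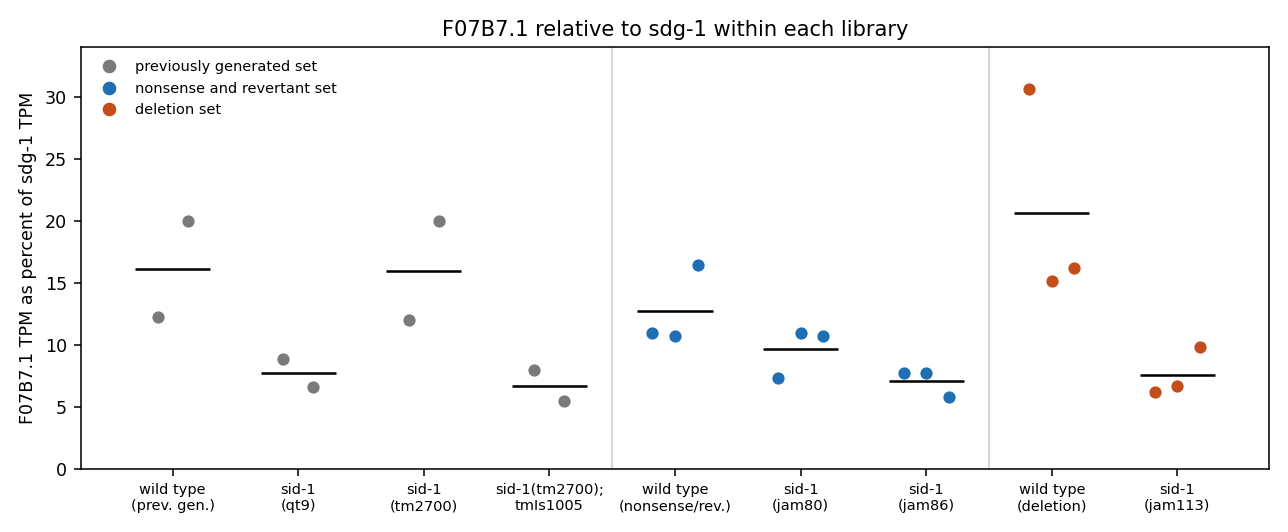
TPM of *F07B7.1* as a percentage of the TPM of *sdg-1* in each library (points) with group means (bars), coloured by set. The wild-type libraries of the deletion set lay between 15.2% and 30.7%, and the *sid-1(jam113)* libraries between 6.2% and 9.8%.

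No other gene near *sdg-1* passed the test. Of the 10 annotated genes on each side of *F07B7.2*, 7 have an entry in the files, *F07B7.1* among them. Besides *F07B7.1*, 0 of them passed the test in any of the 8 comparisons, in which 0.0665% to 3.54% of all genes tested passed. For so few genes, 0 calls at such shares do not set the locus apart. Those with enough reads were *F07B7.12*, the pseudogene *EGAP798.1*, and the histone genes *his-50* and *his-49*. *EGAP798.1*, which starts 5.78 kb after the start of *sdg-1*, had a log2 fold change of 0.54 (adjusted p = 0.815, edgeR) in *sid-1(jam113)* and 0.33 (adjusted p = 0.707) in *sid-1(jam86)*. *F07B7.12*, which starts at -15.1 kb from the start of *sdg-1*, had 0.14 (adjusted p = 0.884) and -0.23 (adjusted p = 0.7). The histone genes had larger values in *sid-1(jam113)*, 0.97 for *his-50* (adjusted p = 0.488) and 0.98 for *his-49* (adjusted p = 0.71), and *his-50* was 1.03 in the revertant against its parent (adjusted p = 0.0881). The median of the 5 neighbours tested in *sid-1(jam113)*, *F07B7.1* included, was 0.97. The nearest upstream genes with an entry, *F07B7.14* and *F07B7.18*, had at most 2 and 3 reads in any library.

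*ZK262.8*, the shorter paralog, was near the limit of detection and higher in *sid-1(jam113)*, without passing the test. It had 17, 15 and 19 reads there, or 0.33, 0.25 and 0.26 CPM. Wild type had 2, 2 and 7 reads, or 0.028, 0.035 and 0.089 CPM, with no overlap. The log2 fold change was 2.36 (SE 0.45, unadjusted p = 0.000672, adjusted p = 0.101, edgeR), so 0 of the 1 member tested in that comparison passed beside 0.197% of all genes. The gene passed the filter on low counts only through the *jam113* libraries, so that a difference was built into its being tested, and without any 1 of them it was not tested. In *sid-1(jam86)* it had 11, 16 and 8 reads against 0, 10 and 2 in wild type and 0, 9 and 6 in *sid-1(jam80)*, with overlapping libraries. The log2 fold change was 1.37 (SE 0.66, adjusted p = 0.25, edgeR) against wild type and 1.21 (SE 0.63, adjusted p = 0.321) against the nonsense parent. Here too it would not have passed the filter without the high group. Replicate 2 of wild type (0.178 CPM) and of *sid-1(jam80)* (0.176 CPM) also exceeded 0.1 CPM. With 1 library left out the values ranged from 0.93 to 3.10 and from 0.71 to 1.95. The highest were those without replicate 2 of wild type (adjusted p = 0.0815, edgeR) and without replicate 2 of *sid-1(jam80)*. It could not be tested in *sid-1(jam80)*.

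The reads of *ZK262.8* moved with those of the overlapping gene. *ZK262.9* had 20, 26 and 22 reads in *sid-1(jam113)* and 6, 3 and 2 in wild type (log2 fold change 2.76, adjusted p = 0.065, edgeR). The part of *ZK262.9* in the *ZK262.8* reads was not tested. In the previously generated set, *ZK262.8* had 0 reads in 8 of 8 libraries, which allows up to 0.114 to 0.135 CPM per library (3 counts, counting error only). Levels such as those of the wild types in the plate sets would have been mostly below that limit, so absence is not shown. Among its own 10 neighbours, *ZK228.3* was lower in *sid-1(tm2700)* (log2 fold change -9.75, adjusted p = 6.36e-05, edgeR) and in the rescued strain made from it (-9.71, adjusted p = 1.55e-12). Both of these calls held in all 8 other settings, the one with no filter included. *srw-82* passed in the rescued strain (adjusted p = 0.0267), where the call was lost without either library of that strain and in 2 other settings, and had an adjusted p of 0.142 in *sid-1(tm2700)* at about the same fitted change. Both *ZK228.3* and *srw-82* passed the filter on low counts only through wild type, so that a difference was built into their being tested. In the plate sets 0 neighbours passed, in comparisons in which 0.0665% to 3.28% of all genes tested passed.

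**Figure D5:**
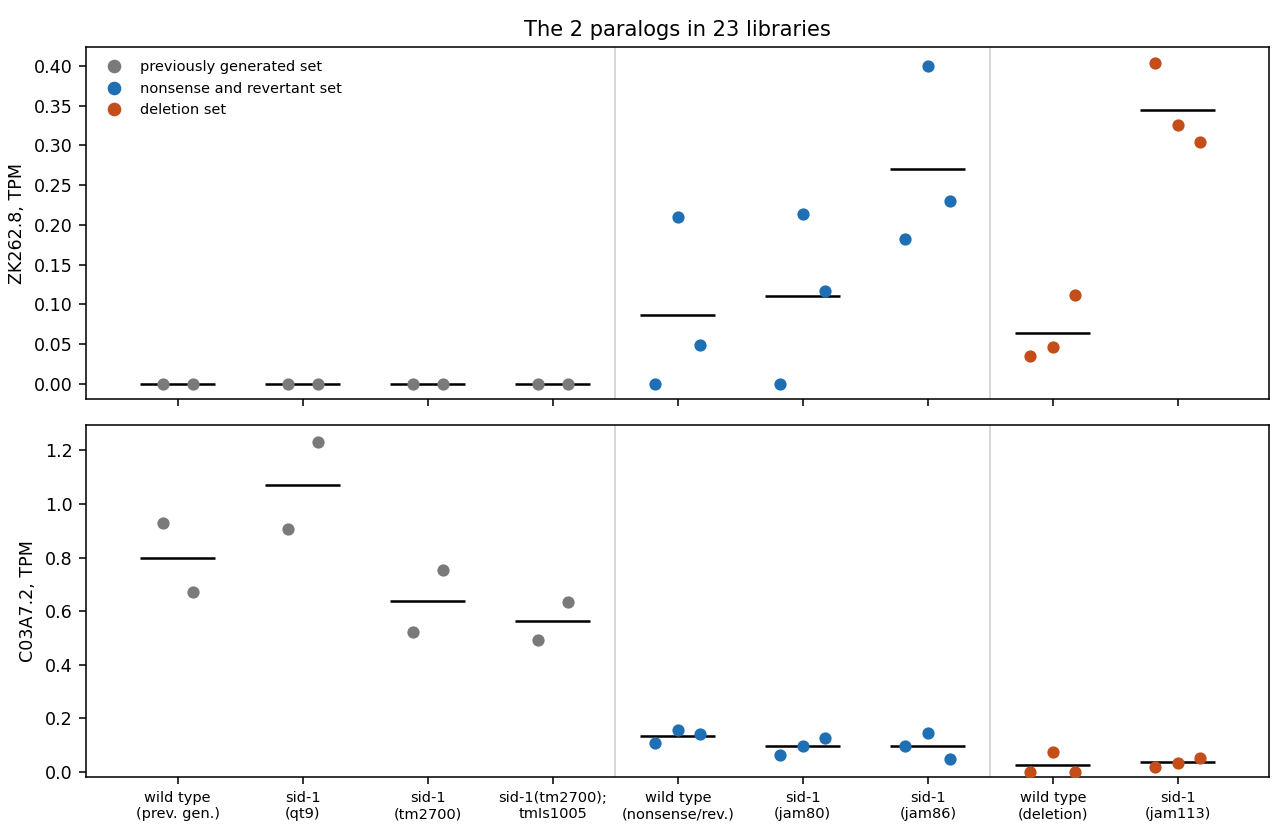
TPM of *ZK262.8* (upper panel) and *C03A7.2* (lower panel) in the 23 libraries, with points for libraries and bars for group means, coloured by set. *ZK262.8* was at 0 throughout the previously generated set, where *C03A7.2* lay between 0.49 and 1.23 TPM, against 0 to 0.16 TPM in the plate sets.

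*C03A7.2*, the paralog nearest to *sid-1*, separated the sets and not the strains. In the 8 libraries of the previously generated set it had 0.49 to 1.23 TPM (median 0.71), close to *sdg-1* itself (0.71 to 2.29 TPM, median 0.84). In the 15 plate libraries it had 0 to 0.16 TPM (median 0.075), with 2 libraries at 0, while *sdg-1* had 1.27 to 26.1 TPM (median 7.54). So the paralog was higher in the set in which the median of *sdg-1* was lower, though the ranges of *sdg-1* overlapped. The plate libraries include those of *sid-1(jam113)*, *sid-1(jam80)* and *sid-1(jam86)*, on which the study chose *sdg-1*. Among wild types, mean *sdg-1* was 0.83 TPM in the previously generated set, 1.44 in the deletion set and 3.15 in the nonsense and revertant set. Mean *C03A7.2* was 0.80, 0.025 and 0.13 TPM in the same order. Within sets no comparison of *C03A7.2* passed. The log2 fold change was 0.28 (SE 0.32, adjusted p = 0.722, edgeR) in *sid-1(qt9)*, -0.46 (SE 0.32, adjusted p = 0.709) in *sid-1(tm2700)*, -0.47 (SE 0.34, adjusted p = 0.576) in the rescued strain, -0.01 (SE 0.34, adjusted p = 0.996) between these last 2, -0.48 (SE 0.48, adjusted p = 0.881) in *sid-1(jam80)* and -0.50 (SE 0.51, adjusted p = 0.613) in *sid-1(jam86)*.

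With 0 to 4 reads per library in the deletion set, *C03A7.2* could not be tested there, nor between the revertant and its parent. In *sid-1(jam80)* and *sid-1(jam86)* against wild type, it would not have passed the filter on low counts without the wild-type libraries. A difference was thus built into its being tested in these comparisons. The gene around it moved with the set as well. *C03A7.13*, on the opposite strand, had 2.63 to 4.17 TPM in the previously generated set and 0.36 to 1.57 TPM in the plate sets. The kit of the previously generated set is not named as stranded, and if it did not mark strand, unspliced reads of *C03A7.13* over *C03A7.2* cannot be told apart from reads of *C03A7.2*. Their part in the difference was not tested. Of the 5 annotated genes on each side of *C03A7.2*, 8 have an entry in the files, and *ugt-51* and *abu-8* were lower in the rescued strain (log2 fold changes of -0.57, adjusted p = 0.0424, and -1.27, adjusted p = 0.000207, edgeR). *abu-8* was also higher in *sid-1(tm2700)* than in the rescued strain (1.26, adjusted p = 1.04e-05, edgeR), a call kept in every alternative run, and higher in *sid-1(jam86)* than in wild type (0.43, adjusted p = 0.0226). The other calls were lost without single libraries, up to an adjusted p of 0.356 for *ugt-51* (without replicate 1 of wild type), 0.0933 for *abu-8* in the rescued strain (the same library) and 0.127 in the revertant (without its replicate 3).

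By the mean absolute difference in log2 fold change over the 6 comparisons of a mutant, revertant or rescued strain with its own wild type, the gene most like *sdg-1* among 16129 genes was *F14F8.8* (mean difference 0.74). *F07B7.1* ranked 2 (0.83), followed by the pseudogene *K09E3.4* (0.94), *C38D9.2* (0.95) and *zeel-1* (0.96), the antidote of the PEEL-1 sperm toxin. *F14F8.8* had log2 fold changes of 2.70 in *sid-1(jam113)*, 0.96 in *sid-1(jam86)* and 0.82 in *sid-1(jam80)*, at no more than 0.50 CPM in any library. *K09E3.4* had 1.96, 1.62 and 0.17 in the same order and 1.91 in *sid-1(qt9)*. *zeel-1* had 0.59 in *sid-1(jam113)*, where *sdg-1* had 3.82. The likeness is a description over 6 comparisons, in which *sdg-1* and each gene were measured in the same libraries. These comparisons include those on which the study chose *F07B7.2* and, in *sid-1(jam113)*, also *F07B7.1*. The rank of *F07B7.1* was therefore favoured in part by that choice.

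Few genes of the pathways around *sdg-1* passed the test, as was so for all genes (0.0665% to 3.54% in the 8 comparisons). Of 10 genes of dsRNA import and RNA interference, among them *sid-1*, *rde-4* and *dcr-1*, only *sid-1* passed the test in any of the 8 comparisons. Of 26 genes of germ granules and heritable silencing, 0 passed in *sid-1(jam113)*, *sid-1(jam80)*, *sid-1(qt9)* and *sid-1(tm2700)*, with medians of the log2 fold change of 0.02, 0.00, 0.20 and 0.00 beside 0.00, 0.00, -0.02 and 0.00 for all genes tested. Of all genes tested, 0.197%, 0.0665%, 1.84% and 1.11% passed there, so 0 of 26 does not set the list apart. In *sid-1(jam86)* the median was -0.11 for the list and 0.02 for all genes. There 3.28% of all genes tested passed, and 2 of the 26 were lower than in wild type. These were *meg-3*, a scaffold of embryonic germ granules (log2 fold change -0.26, SE 0.06, adjusted p = 0.0343, edgeR), and *set-25*, a histone methyltransferase (-0.37, SE 0.08, adjusted p = 0.0233). Both lost the threshold without replicate 3 of the revertant (adjusted p = 0.179 for *meg-3* and 0.127 for *set-25*), *meg-3* also without any 1 of 4 others and *set-25* also without replicate 2 or 3 of wild type (adjusted p = 0.0773 and 0.0669). *meg-3* was also lower in the rescued strain (-0.51, SE 0.13, adjusted p = 0.0126, edgeR; up to 0.133 with 1 library left out).

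Since *sdg-1* is expressed in the germline, germline markers are given beside it. Of all genes tested, 3.28% passed in *sid-1(jam86)*, 0.197% in *sid-1(jam113)*, 0.0665% in *sid-1(jam80)* and 3.54% in the rescued strain. The shares were 1.84% in *sid-1(qt9)* and 1.11% in *sid-1(tm2700)*. In *sid-1(jam86)* the summed level of 10 oogenic markers was 4454 to 4801 TPM, below the 4905 to 5556 TPM of wild type, and that of 9 sperm markers was 100.8 to 106.5 TPM, above the 81.1 to 91.6 TPM of wild type. By edgeR, 1 oogenic marker fell (*spn-4*) and 2 sperm markers rose (*gsp-3* and *spe-11*) there, and each lost the threshold without replicate 3 of the revertant (adjusted p = 0.103, 0.127 and 0.154). In *sid-1(jam113)* the oogenic sum was 6099 to 6404 TPM against 6265 to 6730 in wild type and the sperm sum 66.2 to 69.7 against 61.2 to 66.7 TPM, with overlap in both, and 0 markers of either list passed. In *sid-1(jam80)* both sums overlapped wild type (5072 to 5667 TPM oogenic, 89.3 to 98.2 TPM sperm), and 0 passed. In the rescued strain the oogenic sum was 1079 to 1522 TPM against 1599 to 1774 in wild type, and 2 oogenic markers (*cpg-1* and *mex-5*) fell, which both lost the threshold without replicate 2 of that strain, in a fit with 1 rescued library (adjusted p = 0.302 and 0.414, edgeR). In *sid-1(qt9)* the oogenic sum was 1851 to 2252 TPM and in *sid-1(tm2700)* 1783 to 1814 TPM, both above every wild-type library of the set, with 0 markers passing. The summed germ granule list in *sid-1(qt9)* was 633 to 728 TPM against 534 to 543 in wild type, without overlap. Over all 9 groups the mean oogenic sum ran from 1301 to 6484 TPM, with the previously generated set lowest.

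Among the 8 comparisons, markers of intestine, muscle, neurons and hypodermis passed the test only in those of the previously generated set. Of all genes tested, 1.84% passed in *sid-1(qt9)*, 1.11% in *sid-1(tm2700)*, 3.54% in the rescued strain and 2.07% between these last 2. In *sid-1(qt9)*, in which *sdg-1* had 1.95 times the wild-type level without passing the test, 2 of 6 intestinal markers (the vitellogenins *vit-5* and *vit-6*) and 2 of 3 muscle markers (the myosins *unc-54* and *myo-3*) rose, with log2 fold changes of 0.38 to 0.46. In *sid-1(tm2700)* *unc-54* rose (0.49). In the rescued strain *myo-3*, the neuronal *egl-3* and the hypodermal *rol-6* fell (-0.55, -0.70 and -0.96), and between *sid-1(tm2700)* and the rescued strain 3 of 3 muscle markers and *rol-6* were higher. Of these calls, those of *unc-54* in *sid-1(tm2700)* and *rol-6* in the rescued strain held when any 1 library was left out, and the others were lost without at least 1. The part of germline and somatic shifts in the *sdg-1* values was not tested.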

How the data were processed

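The authors removed adapters with cutadapt and quantified transcripts with Salmon. Their versions are not given in the sources used here, and the submitters' processing notes name the ce11 build. The deposited estimated counts are Salmon's reads per transcript and are not normalized, the deposited TPM values adjust them for effective length and library size, and the deposited lengths were used for one alternative. Transcripts (35749) were summed into 21982 genes with the WBcel235 annotation of Ensembl (31176 matched by identifier, 4485 by sequence name, 88 not matched), and sums were rounded. Only this annotation was used, and no sequence was read.

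Genes over 0.1 CPM in at least 3 libraries (2 in the previously generated set) were tested by the quasi-likelihood method of edgeR 4.0.16 in R 4.3.3 after TMM scaling, with Benjamini-Hochberg adjustment over all genes tested and a threshold of 0.05. SEs were derived from the fold change and the F statistic. Only the groups compared entered each fit; differences between mutants used 1 fit over all libraries. Log2 CPM used a prior count of 2. Tests were checked on simulated counts.

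Alternatives were DESeq2 1.42.0, limma 3.58.1 (voom), upper-quartile scaling, no filter, filterByExpr, counts rebuilt from TPM and length, the replicate number as a block, all groups of a set together, each replicate left out, and, for the fit over all libraries, each set left out. The study describes biological replicates, but the labels do not say that they were separate cultures, so p-values measure the spread between these libraries. Replicate pairs (19) differed by at least 5.01 in chi-square per degree of freedom, so none was a copy. The genes named are the members, *sid-1*, neighbours (10 on each side of *F07B7.2*, 5 on each side of the paralogs), the 5 genes most like *sdg-1*, and genes of fixed lists that passed. *ZK262.9*, *C03A7.13* and the neighbours given with values outside the threshold were named after their values were seen. Members and lists were chosen with earlier results of these data known.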

Additional observations from a re-analysis of the deposited data

Results flagged for a closer look

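In *sid-1(qt9)* both libraries lay above the mean of the wild type of the set for *sdg-1* (*F07B7.2*), and in *sid-1(tm2700)* both lay below it. The difference between the mutants was -1.27 on the log2 scale (SE 0.33) and did not pass the test (adjusted p = 0.0643, edgeR). The same opposite sides were seen for *C03A7.2* between *sid-1(tm2700)* and *sid-1(qt9)* (-0.77, SE 0.41, adjusted p = 0.417, edgeR) and, with every *sid-1(jam80)* library below its own wild-type mean, between *sid-1(jam80)* and *sid-1(qt9)* (-0.78, SE 0.68, adjusted p = 0.719, edgeR).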

How the results depend on the processing

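Over 29 results of the members and 327 alternatives to them, 308 kept their direction and their side of the threshold or, for values given without a test, their size within 1 replicate SD. For *F07B7.2* in *sid-1(qt9)*, no filter gave 0.97 (adjusted p = 0.0317), and leaving out 1 replicate gave 0.52 to 1.34. In the rescued strain against wild type, leaving out 1 replicate gave -0.074 to 0.23. In the fit over all libraries, *F07B7.2* moved to 2.31 without the nonsense and revertant set and to -0.31 without the deletion set. *F07B7.1* moved there to 1.83 and -0.17, and *ZK262.8* to -0.68 without the deletion set. With 1 replicate left out, *F07B7.1* ranged from -0.69 to 0.52 in *sid-1(qt9)* and from -0.70 to 0.16 in *sid-1(tm2700)*, and *C03A7.2* from -0.29 to 0.25 between *sid-1(tm2700)* and its rescued strain, where the replicate block gave 0.020 and all groups in one fit 0.0031. The causes were not tested.

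Replicate numbers did not pair the libraries (same-numbered deviations correlated between -0.08 and 0.32). The replicate block changed no call of a member and gave *F07B7.2* values of 0.96 in *sid-1(qt9)* and 2.64 in *sid-1(jam86)*. DESeq2 gave no adjusted p for several low members, which were left out of these counts. Of 37 calls of genes named beside the members, 9 held in every alternative and 0 reversed. The number of genes called in *sid-1(jam113)*, 33, ranged from 7 to 1370 with 1 replicate left out (1370 without its replicate 3) and reached 582 in DESeq2. It ranged from 120 to 1598 for *sid-1(qt9)* (336), from 135 to 706 for *sid-1(tm2700)* (204), from 315 to 1183 for the rescued strain (648), from 110 to 1532 between these (379), from 6 to 34 for *sid-1(jam80)* (11), from 116 to 929 for *sid-1(jam86)* (545), and from 57 to 777 between the last 2 (207). In the previously generated set *F07B7.1* had 2 to 6 reads per library and *ZK262.8* had 0, which limits the precision there.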
